A study of Homo sapiens with 8 samples.

Results

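A group of 33 genes that act in lysosomes and autophagy was followed across 8 RNA-seq libraries of human pancreatic cancer cell lines. The genes were taken by symbol from a fixed list, and they are 33 of the 62649 genes in the table. The list was chosen with earlier results of these data known. All 33 were found, and all passed the filter of at least 1 TPM in 2 libraries that left 19122 genes for testing. By role they comprise 2 transcription factors, 5 proteins of the lysosomal membrane and of cholesterol and ion transport, 9 hydrolases and their activator, 11 autophagy proteins and 6 parts of the vacuolar proton pump.

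The libraries came from AsPC-1 and PANC-1 cells, established lines whose genotype the labels give as WT, grown for 3 days in methylcellulose medium. In each line 1 library was made after 24 h with vehicle, 1 with 10 µM roseoflavin, 1 with 1 nM trametinib and 1 with both compounds at those doses. Roseoflavin is an antibiotic analogue of riboflavin, and trametinib inhibits the MEK kinases of the MAPK pathway. No group had a second library, so the lines and the other compound served as replication, and p-values measure only the spread between these libraries.

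Lysosomes are acidic compartments in which hydrolases digest material brought in by endocytosis or autophagy. The vacuolar ATPase pumps protons into them, and autophagosomes formed by the ULK, Beclin and ATG8 conjugation systems fuse with them. Many of the genes involved are known targets of TFEB and TFE3, transcription factors of the MiT/TFE family that bind E-box sequences and leave the cytoplasm for the nucleus when nutrient signalling is low or lysosomes are stressed, so that their activity need not follow their mRNA level.

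The sequences shown here are the places where the E-box letters CACGTG occur near the starts of these genes, because they are the letters that the MiT/TFE factors recognise. RefSeq promoters (GRCh38.p14, 250 bases before to 50 after each start) were at hand for 24 of the 33 genes, in 30 promoters. Named without a promoter are LAMP2, CTSB, HEXA, PSAP, UVRAG, ATP6V1A, ATP6V1B2, ATP6V1C1 and ATP6V1H. Both strands were searched. CACGTG occurred in 6 of the 24 genes (25%), against 8.77% of all 27305 genes in the promoter table. The longer TCACGTGA, which contains it, occurred in 4 of them (16.7%), against 1.18% of all genes, and the same letters with G before and C after them occurred in MCOLN1 alone, against 0.421%. The windows below run 5′ to 3′ on the strand of the gene, with the E-box in capitals, at chr13:113297199-113297228 (LAMP1, plus strand), chr19:7522571-7522600 and chr19:7522598-7522627 (MCOLN1, plus), chr20:45891281-45891310 and chr20:45891298-45891327 (CTSA, plus), chr11:1763957-1763986 (CTSD, minus), chr6:31862930-31862959 (NEU1, minus) and chr16:67481199-67481228 (ATP6V0D1, minus).
LAMP1: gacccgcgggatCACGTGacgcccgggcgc
MCOLN1 first: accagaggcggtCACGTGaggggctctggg
MCOLN1 second: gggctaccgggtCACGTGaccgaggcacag
CTSA first: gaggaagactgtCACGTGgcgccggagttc
CTSA second: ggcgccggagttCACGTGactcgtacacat
CTSD: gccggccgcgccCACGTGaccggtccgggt
NEU1: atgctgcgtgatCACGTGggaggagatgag
ATP6V0D1: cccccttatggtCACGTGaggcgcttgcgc
LAMP1 held 6 such places, of which 1 is shown. A match describes the letters and is not evidence of binding.

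A second set of letters, TGACNNNGC, the core of the antioxidant response element, was searched because the stress genes described further on include NRF2 targets. It occurred on either strand in 9 of the 24 genes (37.5%), against 16.1% of all genes. It can share letters with an E-box, as at 1 place in LAMP1. Of the 5 genes with this core and no E-box (CTSL, CTSZ, GLA, MAP1LC3B and NPC2), the windows of 2 with fitted compound changes given below, picked after their values were seen, are shown on the strand of the gene at chr14:74493351-74493380 (NPC2, minus) and chr16:87392280-87392309 (MAP1LC3B, plus), with the core in capitals.
NPC2: acaggtcgccTGACTGGGCtcctccccggg
MAP1LC3B: gcgagtcaccTGACCAGGCtgcgggctgag
The letters of neither motif occurred in the SQSTM1 promoters of the table, which says only that they are not in those windows.

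Each library summed to 1000000 TPM, a unit that corrects for transcript length and keeps no record of sequencing depth, so the precision due to depth is unknown. Mitochondrially encoded genes took 41.2% to 44.1% of TPM in AsPC-1 and 22.8% to 25.6% in PANC-1, and because the unit is a share, all other genes are scaled down further in AsPC-1. Comparisons were therefore repeated after removing those 37 genes and rescaling. The epithelial marker EPCAM was at 1224 to 1485 TPM in AsPC-1 and 14.5 to 16.8 TPM in PANC-1, the mesenchymal VIM was higher in PANC-1, and the keratins KRT8, KRT18 and KRT19 were abundant in both. Of the fibroblast collagens, COL1A1 was at 98.9 to 107 TPM in PANC-1 and 0.121 TPM or less in AsPC-1, and COL1A2 reached at most 0.027 TPM. The blood and endothelial markers PTPRC and PECAM1 were at or near 0 in every library.

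The largest contrast among the 33 genes was between the lines. PANC-1 spheroids carried more mRNA for the lysosomal protease cathepsin D, the sphingolipid activator precursor PSAP, the sialidase NEU1, the membrane protein LAMP2 and the autophagy proteins ULK1, WIPI1 and MAP1LC3B. AsPC-1 spheroids carried more for the proteases cathepsin A and cathepsin B, the factor TFEB, the autophagy receptor SQSTM1 and the pump subunit ATP6V1B2. Summed over the 33 genes, the level was 1903, 1883, 2013 and 2084 TPM in AsPC-1 with vehicle, roseoflavin, trametinib and both, and 5387, 6410, 5433 and 6565 TPM in PANC-1. PSAP alone made up 53.8% to 57.1% of the sum in PANC-1 and 21.9% to 22.8% in AsPC-1. Without PSAP, CTSD and SQSTM1 the sum was 929, 911, 968 and 984 TPM in AsPC-1 and 1203, 1269, 1235 and 1298 TPM in PANC-1. Most of the gap in the sum therefore lay in PSAP and CTSD. These sums are in deposited TPM, which the mitochondrial share scales down further in AsPC-1. In bulk RNA a change in the make-up of the cells and a change in the RNA per cell cannot be told apart.

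By limma on log2(TPM + 1) with Benjamini-Hochberg adjustment over all genes, 23 of the 33 genes were higher in PANC-1 and 5 were lower at an adjusted p under 0.05. Of all genes tested, 62.3% were higher and 21.5% lower by the same rule, so these counts are near the background. The median difference, PANC-1 minus AsPC-1, was 0.47 for the 33 genes and 0.55 for all genes on the log2 scale. The 4 libraries of a line did not overlap with those of the other for 23 genes above and 5 below, against 59.4% and 19.8% of all genes. After rescaling without the mitochondrial genes, which moved the median of all genes by -0.31, 15 genes were higher (49.7% of all genes) and 12 lower (30.9%). The 12 were the 5 named above and 7 whose call depends on the mitochondrial share. Of these, LAMP1 and CTSZ turned from higher to lower in PANC-1, at -0.14 and -0.21 after rescaling (limma adjusted p = 0.0122 and 0.0147). NPC2, GLA, GABARAPL1, BECN1 and ATP6V1H went from not called to lower, at -0.32, -0.42, -0.37, -0.32 and -0.31 (adjusted p from 0.000172 to 0.00898). Each of the 7 was then lower in 4 of 4 matched comparisons. The calls of NPC1, MCOLN1, GABARAP, GABARAPL2, ATP6V0D1 and ATP6V1C1 also depend on that share. They were higher in PANC-1 in the deposited TPM and called in neither direction after rescaling.

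**Figure D1:**
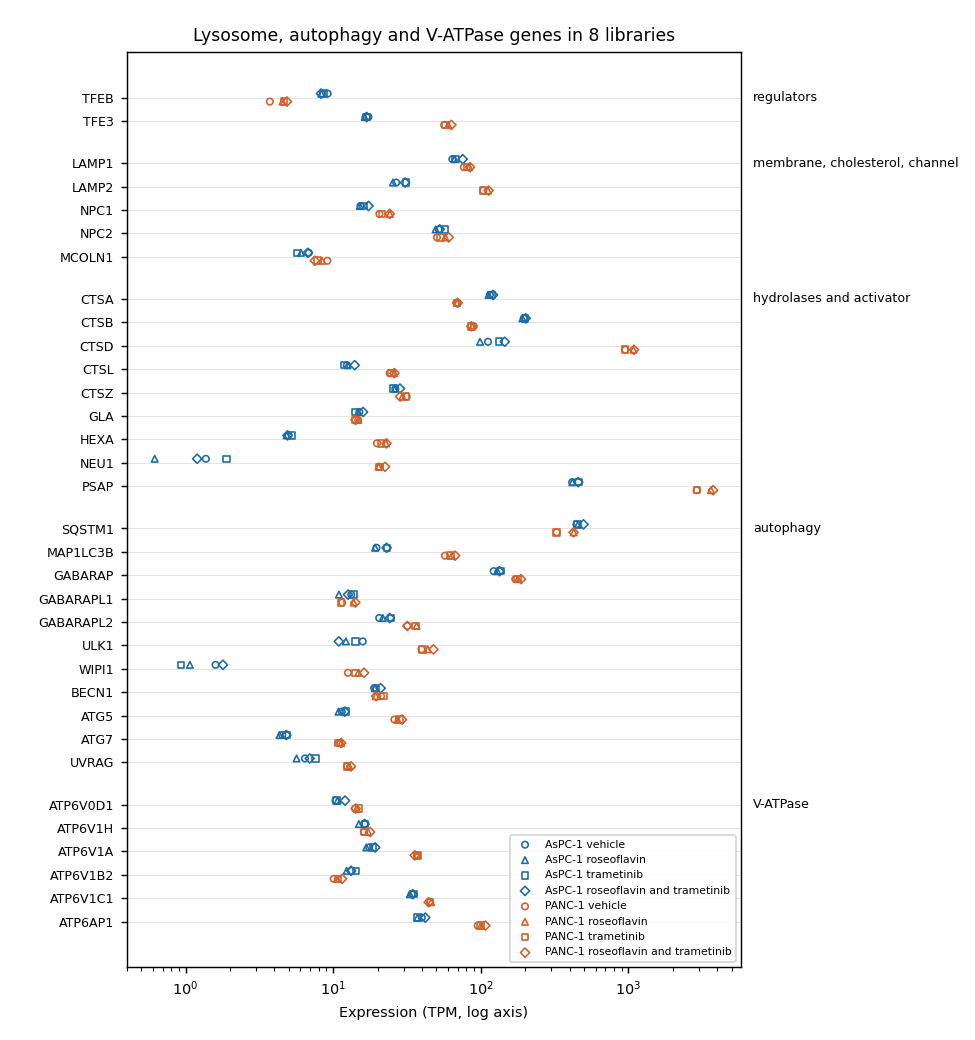
Level of each of the 33 genes in every library, in TPM on a log axis, grouped by role, with 1 point per library and the lines in separate colours. The points of a line lie close together for most genes, and the gaps between lines are widest for NEU1, CTSD, PSAP and WIPI1.

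The regulators TFEB and TFE3 differed in opposite directions. TFEB was at 9.19, 8.31, 8.64 and 8.28 TPM in AsPC-1 with vehicle, roseoflavin, trametinib and both, and at 3.73, 4.54, 4.63 and 4.87 TPM in PANC-1 in the same order, which is used throughout. TFE3 was at 17.3, 16.4, 16.9 and 16.8 TPM in AsPC-1 and at 56.5, 60.3, 57.5 and 63.2 TPM in PANC-1. No AsPC-1 library of TFEB was as low as any PANC-1 library, and for TFE3 the order was the reverse. The TFE3 difference was 1.76 (SE 0.0459, limma adjusted p = 1.18e-07, higher in 4 of 4 matched comparisons). Both directions held after rescaling.

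Among the membrane proteins, LAMP1 and LAMP2 are the heavily glycosylated coat of the lysosome, NPC1 and NPC2 move cholesterol out of it, and MCOLN1 is its calcium release channel. LAMP2 was at 26.7, 25.4, 31.2 and 30.7 TPM in AsPC-1 and 104, 112, 104 and 113 TPM in PANC-1. No library of one line came near the other, and the difference was 1.89 (SE 0.0634, limma adjusted p = 3.51e-07, higher in 4 of 4). LAMP1 differed far less, at 64.3 to 75.5 TPM in AsPC-1 and 76.8 to 84.6 TPM in PANC-1, and after rescaling it was lower in PANC-1, with libraries that overlapped. NPC2 was nearly level, at 49.5 to 57.3 TPM in AsPC-1 and 50.5 to 60.7 TPM in PANC-1, and its difference missed the threshold, although it was called lower in PANC-1 after rescaling.

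The hydrolases held both extremes. CTSD, the aspartic protease of the lysosome, was at 112, 98.9, 133 and 145 TPM in AsPC-1 and 954, 1082, 953 and 1091 TPM in PANC-1, a difference of 3.06 (SE 0.103, limma adjusted p = 3.52e-07, higher in 4 of 4). PSAP, the precursor of the saposins that present sphingolipids to their hydrolases, was at 417, 417, 459 and 457 TPM in AsPC-1 and 2904, 3633, 2920 and 3750.3 TPM in PANC-1, a difference of 2.90 (SE 0.0779, adjusted p = 1.32e-07, 4 of 4). In the vehicle libraries these are 8.52-fold and 6.97-fold ratios of TPM. HEXA, the alpha subunit of beta-hexosaminidase, was at 4.98, 4.84, 5.25 and 4.91 TPM in AsPC-1 and 19.8, 22.8, 21.0 and 23.0 TPM in PANC-1 (1.92, SE 0.0573, adjusted p = 2.14e-07, 4 of 4).

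CTSB, a cysteine protease, ran the other way. It was at 196, 192, 199 and 202 TPM in AsPC-1 and 89.8, 87.5, 86.0 and 86.4 TPM in PANC-1, a difference of -1.16 (SE 0.0344, limma adjusted p = 2.03e-07, lower in 4 of 4). CTSA, a carboxypeptidase that also protects NEU1 and beta-galactosidase in a complex, was likewise higher in AsPC-1, at 113 to 121 TPM against 68.3 to 69.8 TPM. Its partner NEU1 was at 0.618 to 1.90 TPM in AsPC-1 and 20.4 to 22.5 TPM in PANC-1, so the genes of this complex differed in opposite directions. GLA, the alpha-galactosidase, was at 14.1 to 15.95 TPM in AsPC-1 and 14.04 to 14.8 TPM in PANC-1, and did not pass the test except after rescaling, when it was lower in PANC-1.

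Of the 11 autophagy genes, 8 were higher in PANC-1 and 1 was lower, against 62.3% and 21.5% of all genes, and after rescaling 6 were higher and 3 lower (49.7% and 30.9%). ULK1, the kinase that starts autophagosome formation, was at 10.9 to 15.9 TPM in AsPC-1 and 39.7 to 47.8 TPM in PANC-1. MAP1LC3B, an ATG8 protein that is conjugated to the autophagosome membrane, was at 19.2 to 23.1 TPM against 57.2 to 67.1 TPM. WIPI1, which binds phosphoinositide on the forming membrane, was at 0.930 to 1.79 TPM against 12.6 to 16.2 TPM. SQSTM1, the receptor p62 that ties ubiquitinated cargo to ATG8 proteins and is itself degraded with it, was lower in PANC-1 under both scalings, at 445 to 497 TPM in AsPC-1 and 325 to 426 TPM in PANC-1. GABARAPL1, a further ATG8 protein, and BECN1, the Beclin subunit of the lipid kinase complex, did not pass the test in the deposited TPM and were lower in PANC-1 after rescaling.

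The proton pump genes differed modestly. ATP6V1A, the catalytic subunit, was at 16.8 to 19.3 TPM in AsPC-1 and 35.7 to 37.2 TPM in PANC-1, and the accessory protein ATP6AP1 was at 37.3 to 42.1 TPM against 95.4 to 108 TPM. ATP6V1B2, the partner of ATP6V1A in the catalytic ring, was lower in PANC-1, at 10.1 to 11.5 TPM against 12.4 to 14.3 TPM. ATP6V1H, a regulatory subunit, overlapped between the lines at 15.0 to 17.8 TPM over all 8 libraries, and no longer did so after rescaling, when it was lower in PANC-1.

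Roseoflavin was compared next, first within PANC-1, where 2 libraries with the compound stood against 2 without. The largest values were those of PSAP and SQSTM1, each higher in both roseoflavin libraries, and the increments were nearly the same with and without trametinib. NPC1, NPC2, GABARAPL1 and ULK1 were higher in both matched comparisons by smaller amounts. No gene of the 33, and none of the 19122, passed an adjusted p of 0.05, so these are values and not called changes.

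In PANC-1 the level of SQSTM1 was 327 TPM with vehicle, 426 with roseoflavin, 325 with trametinib and 425 with both. Both roseoflavin libraries lay above both others, by 1.30-fold without and 1.31-fold with trametinib, and the fitted change was 0.38 (SE 0.0413, limma adjusted p = 0.251). PSAP went from 2904 to 3633 TPM without trametinib (1.25-fold) and from 2920 to 3750.3 TPM with it (1.28-fold), and its fitted change was 0.34 (SE 0.0361, limma adjusted p = 0.245). With trametinib alone both genes were close to their vehicle level.

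For GABARAPL1 the levels in PANC-1 were 11.5, 13.8, 11.3 and 14.1 TPM with vehicle, roseoflavin, trametinib and both, a fitted change of 0.27 (SE 0.0590, limma adjusted p = 0.397). NPC2 was at 50.5, 57.5, 53.2 and 60.7 TPM (0.19, SE 0.0373, adjusted p = 0.386). For NPC1 they were 20.6, 24.2, 21.5 and 24.2 TPM (0.20, SE 0.0531, adjusted p = 0.406). ULK1 was at 39.7, 43.9, 40.2 and 47.8 TPM (0.19, SE 0.0479, adjusted p = 0.406). In each of these 4 genes both roseoflavin libraries lay above both libraries without it.

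Counted over the whole group in PANC-1, 24 of the 33 genes were higher with roseoflavin in both matched comparisons, against 30.5% of all genes, and 3 were lower in both, against 29.8%. At an unadjusted p under 0.05, limma gave 9 higher (5.84% of all genes), the 6 above with LAMP2, HEXA and MAP1LC3B, and 1 lower (5.01%), BECN1, and 0 at an adjusted p under 0.05 (0% of all genes). The median change was 0.08 for the 33 genes and 0.00 for all genes. Rescaling without the mitochondrial genes gave 22 higher in both (22.7%) and 8 lower (38.6%), 6 higher (3.54%) and 2 lower (8.12%) at an unadjusted p, and a median of 0.05 against -0.03. The 9 genes higher at an unadjusted p became 3 without the PANC-1 vehicle or roseoflavin library and 2 without either other PANC-1 library. The 3 genes lower in both comparisons were MCOLN1, the protease CTSZ and BECN1. By role, 4 of 5 membrane genes, 6 of 9 hydrolases, 9 of 11 autophagy genes, 3 of 6 pump genes and both regulators were higher in both.

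**Figure D2:**
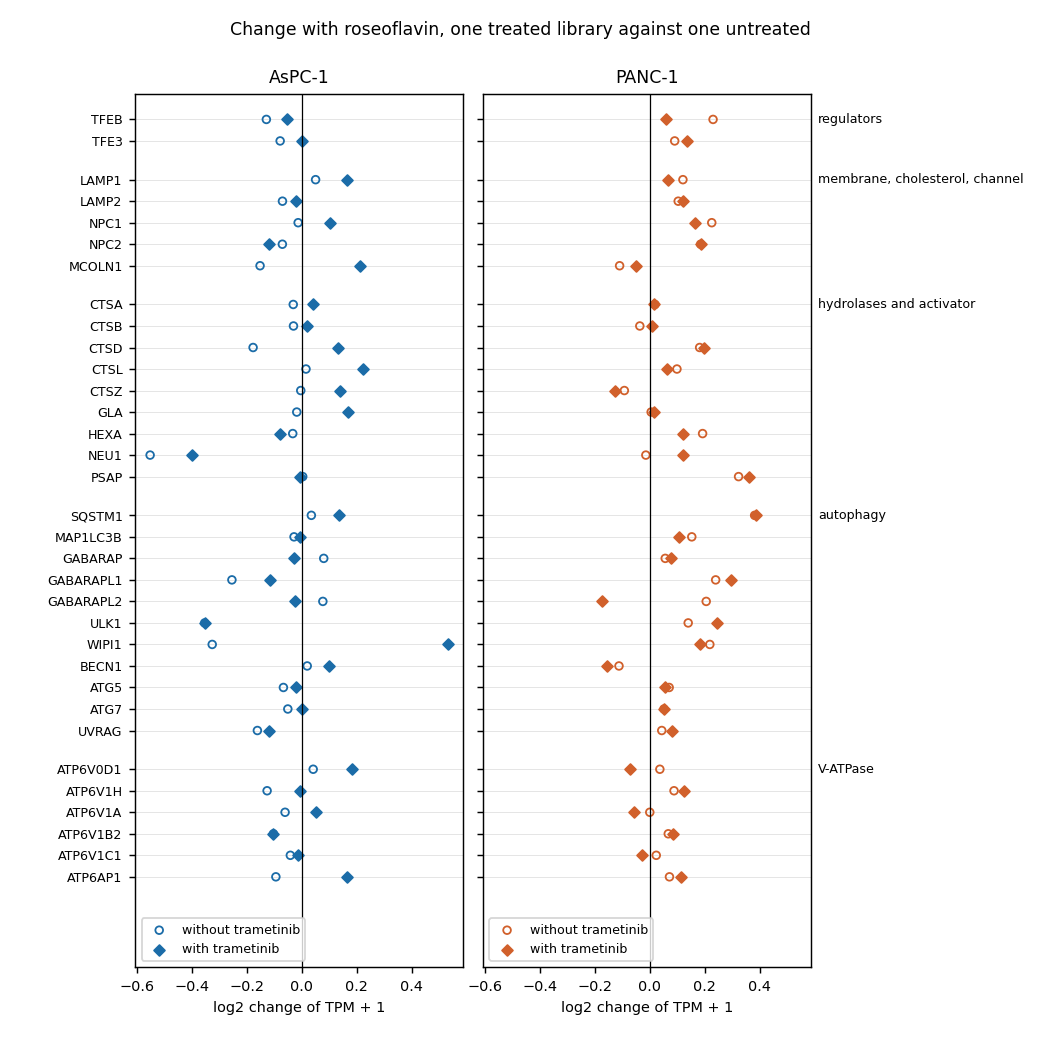
Change in log2(TPM + 1) with roseoflavin for each of the 33 genes, 1 treated library against 1 untreated library of the same line, without trametinib (open circles) and with it (filled diamonds). In PANC-1 both symbols lie right of 0 for 24 genes, and in AsPC-1 both lie left of 0 for 15.

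In AsPC-1 the 3 genes with an unadjusted p under 0.05 were lower with the same compound, a number near the background given below. ULK1 was at 15.9 TPM with vehicle, 12.2 with roseoflavin, 14.2 with trametinib and 10.9 with both, so that both roseoflavin libraries lay below both others by an equal ratio of 0.769 without and 0.768 with trametinib. The fitted change was -0.35 (SE 0.0479, limma adjusted p = 0.355). NEU1 was at 1.37, 0.618, 1.90 and 1.20 TPM (-0.48, SE 0.0749, adjusted p = 0.363), near the level at which the scale understates a change. GABARAPL1 was at 13.3, 11.0, 13.8 and 12.6 TPM (-0.18, SE 0.0590, adjusted p = 0.416). SQSTM1 in AsPC-1 was at 445, 456, 453 and 497 TPM, and PSAP at 417, 417, 459 and 457 TPM.

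With roseoflavin in AsPC-1, 5 of the 33 genes were higher in both matched comparisons (17.0% of all genes) and 15 lower (35.4%), and after rescaling 10 were higher (22.1%) and 10 lower (30.0%). At an unadjusted p under 0.05 there were 0 higher (2.75%) and 3 lower (8.57%), and by limma 0 at an adjusted p. These 3 lower genes, and the 10 lower in both after rescaling, are near the background. The median change was -0.0057, against -0.03 for all genes, and turned to 0.02 against -0.01 after rescaling. The share of mitochondrial TPM moved with the compound, from 41.2% to 44.1% without trametinib and from 42.2% to 41.3% with it, and its part in these values was not tested beyond the rescaling.

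Over both lines together, 2 of the 33 genes were higher with roseoflavin at an unadjusted p under 0.05 (2.03% of all genes) and 0 were lower (5.07%), and limma called 0 at an adjusted p. They were SQSTM1 (0.23, SE 0.0694, adjusted p = 0.659, higher in 4 of 4 matched comparisons) and LAMP1 (0.10, SE 0.0373, adjusted p = 0.674, 4 of 4). LAMP1 was at 64.3, 66.6, 67.2 and 75.5 TPM in AsPC-1 and 76.8, 83.6, 80.8 and 84.6 TPM in PANC-1. Besides these, CTSL was higher in all 4, so that 3 genes met that rule, against 4.91% of all genes, and 0 were lower in all 4, against 10.2%.

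The difference between the lines in the roseoflavin change was tested directly. The smallest p among the 33 genes belonged to ULK1, whose change was higher in PANC-1 than in AsPC-1 by 0.55 (SE 0.0677, limma adjusted p = 0.330). PSAP followed at 0.34 (SE 0.0511, adjusted p = 0.336), then GABARAPL1 at 0.45 (SE 0.0835), NPC2 at 0.28 (SE 0.0528) and SQSTM1 at 0.30 (SE 0.0584), all 3 at the same adjusted p of 0.336, and NEU1 at 0.53 (SE 0.106, adjusted p = 0.339). Each was positive in both matched comparisons. Limma called 0 genes at an adjusted p, and at an unadjusted p 9 were positive (8.11% of all genes), the 6 above with LAMP2, HEXA and UVRAG, and BECN1 was the 1 negative (3.54%), with a median of 0.11 against 0.04. After rescaling 6 were positive (5.26%) and 2 negative (6.97%), with a median of 0.05 against -0.01. The count of 9 was 6 without the AsPC-1 vehicle or roseoflavin library, 12 without either other AsPC-1 library, 4 without the PANC-1 vehicle or roseoflavin library and 3 without either other PANC-1 library.

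A total of 13 genes were lower with roseoflavin in both AsPC-1 comparisons and higher in both PANC-1 comparisons, against 11.5% of all genes. After rescaling 9 did so (7.06%), all of them among the 13, and they were TFEB, TFE3, LAMP2, GABARAPL1, ULK1, ATG5, UVRAG, ATP6V1H and ATP6V1B2. Some of these signs rest on very small log2 changes in AsPC-1. After rescaling LAMP2 was at -0.00092 and ATG5 at -0.00079 without trametinib, and in the deposited TPM TFE3 was at -0.00073 with it. ATG5 is part of the ATG8 conjugation enzyme, and UVRAG is a Beclin partner. The reverse pattern was seen for BECN1 (5.32%), and for 5 genes after rescaling (9.67%), BECN1, CTSA, CTSZ, GLA and ATP6V1A. In the deposited TPM, ATG5 shows the size involved, at 11.4, 10.9, 12.2 and 12.0 TPM in AsPC-1 and 26.0, 27.3, 28.2 and 29.3 TPM in PANC-1.

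**Figure D3:**
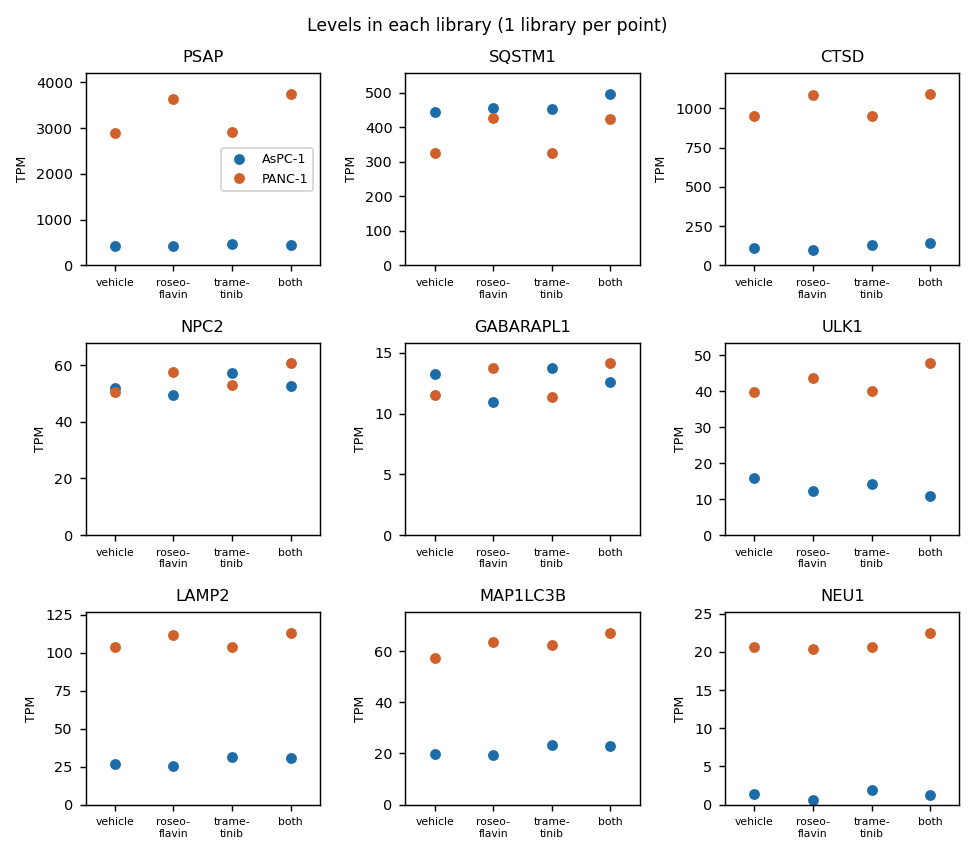
Levels in TPM by line and treatment for genes named in the compound comparisons, 1 point per library. In PANC-1 the roseoflavin libraries lie above the others for PSAP and SQSTM1, and for ULK1 they lie below the others in AsPC-1 and above them in PANC-1.

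The 6 genes with an E-box near their start did not share 1 direction with roseoflavin in PANC-1. LAMP1, CTSD and CTSA were higher in both comparisons (30.5% of all genes), CTSA by 1.01-fold. MCOLN1 was lower in both (29.8%), and NEU1 and ATP6V0D1 were higher in 1 and lower in 1. After rescaling CTSA was lower in both, at -0.017 and -0.021 on the log2 scale. MCOLN1, which has both E-box windows shown and the longest palindrome, was at 9.14, 8.40, 7.83 and 7.52 TPM there. Of the 9 genes with the antioxidant core, 7 were higher in both (30.5% of all genes). CTSZ was lower in both (29.8%), and ATP6V0D1 was higher in 1 and lower in 1. MAP1LC3B, 1 of the 7, was at 57.2, 63.7, 62.2 and 67.1 TPM there. Being higher in both was common in the whole group, at 24 of the 33 genes, and whether it goes with the core was not tested. After rescaling CTSA and GLA, which are among the 7, were lower in both, GLA at -0.030 and -0.020 on the log2 scale.

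Trametinib was compared in the same way. In AsPC-1 it went with higher LAMP2, MAP1LC3B, CTSD, NEU1, UVRAG and PSAP. In PANC-1 the median log2 change of the 33 genes was 0.016 both without and with roseoflavin. Single genes there ran from -0.20 to 0.25 without and from -0.20 to 0.14 with roseoflavin. MAP1LC3B in AsPC-1 was at 19.7 and 19.2 TPM without trametinib and 23.1 and 23.0 with it, a ratio of 1.18 without and 1.20 with roseoflavin, and the fitted change was 0.23 (SE 0.0394, limma adjusted p = 0.272). For LAMP2 the 2 libraries with trametinib, at 31.2 and 30.7 TPM, lay above those without, at 26.7 and 25.4 TPM (0.24, SE 0.0376, adjusted p = 0.271).

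The other 4 genes named by the same rule in AsPC-1 were also higher in both matched comparisons. CTSD was at 112 and 98.9 TPM without trametinib and 133 and 145 TPM with it (0.40, SE 0.0848, limma adjusted p = 0.281), a ratio of 1.19 without and 1.47 with roseoflavin. UVRAG was at 6.44 and 5.65 TPM against 7.62 and 6.94 TPM (0.23, SE 0.0504, adjusted p = 0.281). The PSAP change was 0.14 (SE 0.0361, adjusted p = 0.308) and that of NEU1 was 0.37 (SE 0.0749, adjusted p = 0.278), at the levels given above. For NEU1 the libraries with and without trametinib overlap, since 1.37 TPM with vehicle exceeds 1.20 TPM with both compounds.

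In AsPC-1, 24 of the 33 genes were higher with trametinib in both comparisons (33.4% of all genes) and 2, TFEB and ULK1, were lower (20.9%). The counts at an unadjusted p were 7 higher (9.42%), the 6 above and NPC2, and 1 lower (4.65%), ULK1, with 0 by limma at an adjusted p, and the median change was 0.08 against 0.02 for all genes. Rescaling gave 22 higher (28.5%) and 3 lower (25.9%). The median was 0.13 without the AsPC-1 vehicle or trametinib library and 0.05 without the AsPC-1 roseoflavin library or that with both compounds. In PANC-1, 19 were higher in both (29.6%) and 7 lower (21.5%), which became 10 (24.4%) and 11 (26.3%) after rescaling. There limma gave 0 at an adjusted p and 0 in either direction at an unadjusted p (2.46% and 2.35% of all genes).

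**Figure D4:**
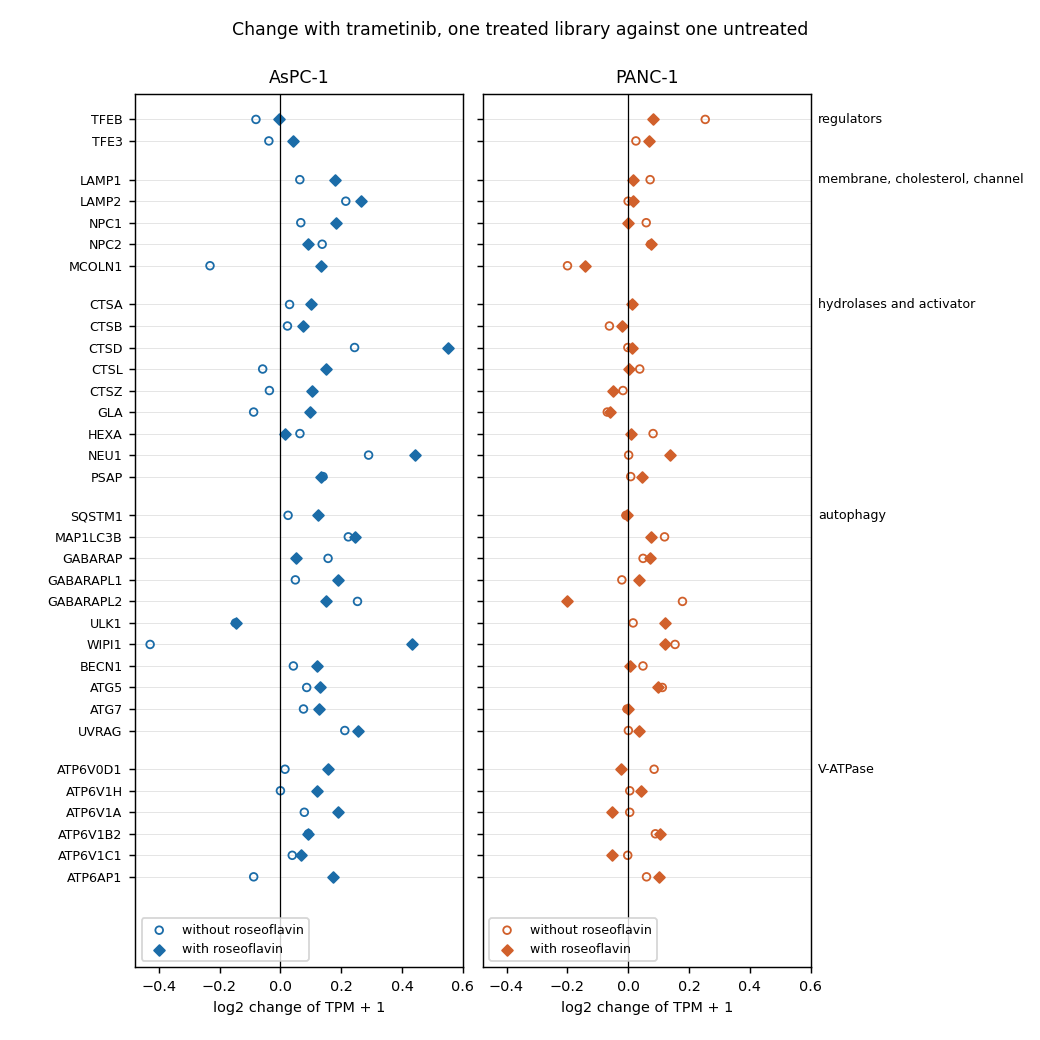
Change in log2(TPM + 1) with trametinib for each of the 33 genes, 1 treated library against 1 untreated library of the same line, without roseoflavin (open circles) and with it (filled diamonds). In AsPC-1 both symbols lie right of 0 for 24 genes, and in PANC-1 most symbols lie near 0.

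The lines were also compared for their trametinib change. At an unadjusted p, 1 gene, ULK1, was positive in PANC-1 minus AsPC-1 (3.68% of all genes) and 4 were negative (6.01%), and limma called 0 at an adjusted p. LAMP2 had the smallest p, at -0.23 (SE 0.0532, limma adjusted p = 0.493), with 104 and 112 TPM without and 104 and 113 TPM with trametinib in PANC-1. CTSD followed at -0.39 (SE 0.120, adjusted p = 0.508) and ULK1 at 0.22 (SE 0.0677, adjusted p = 0.508). UVRAG and NEU1 were at -0.22 (SE 0.0713) and -0.30 (SE 0.106), both with an adjusted p of 0.514.

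Over both lines, 13 of the 33 genes were higher with trametinib in all 4 matched comparisons (9.66% of all genes) and 0 were lower in all 4 (4.54%). After rescaling 4 were higher (6.57%), namely NPC2, MAP1LC3B, ATG5 and ATP6V1B2. Limma called 0 at an adjusted p, with 2 higher (3.12%) and 0 lower (1.78%) at an unadjusted p. They were MAP1LC3B (0.17, SE 0.0509, adjusted p = 0.861) and ATG5 (0.11, SE 0.0401, adjusted p = 0.861), each higher in 4 of 4.

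With both compounds, the departure from the sum of the single changes on the log2 scale was tested over both lines. Limma called 0 genes of the 33 at an adjusted p and 0 at an unadjusted p in either direction (1.80% and 0.999% of all genes), and the median was 0.03 for the 33 genes and for all genes, and -0.01 for both after rescaling. Set against vehicle, with 1 library each and no test, both compounds gave a median change of 0.08 in AsPC-1, with 24 genes higher and 9 lower, and of 0.13 in PANC-1, with 26 higher and 7 lower. The medians of all genes were 0.00 and 0.0042, with 46.8% of all genes higher and 47.5% lower in AsPC-1, against 51.1% and 45.9% for PANC-1. These comparisons use the same vehicle libraries as those of the single compounds.

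**Figure D5:**
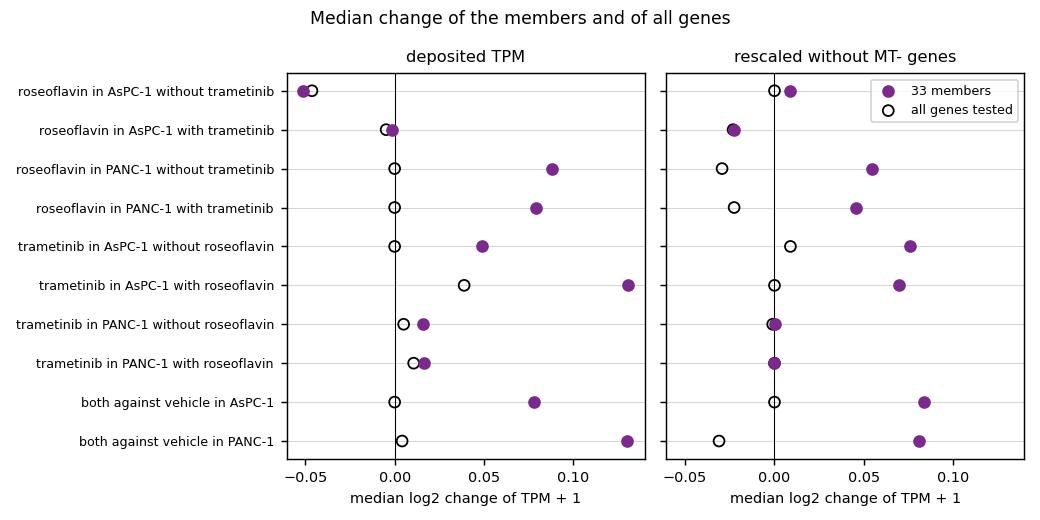
Median change in log2(TPM + 1) over the 33 genes and over all 19122 genes tested, for each comparison of 1 library with 1, in the deposited TPM (left) and after rescaling without the mitochondrial genes (right). The median of the 33 genes lies above that of all genes in both roseoflavin comparisons in PANC-1, at 0.09 and 0.08 against 0.00 in the deposited TPM. With trametinib in AsPC-1 it also lies above, at 0.05 against 0.00 without and 0.13 against 0.04 with roseoflavin. In the deposited TPM it lies below only for roseoflavin in AsPC-1 without trametinib, at -0.051 against -0.046.

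Other genes of the pathway were read from lists by role. With roseoflavin in PANC-1, 6 of 32 further hydrolases were higher and 0 lower at an unadjusted p, as were 2 of 16 membrane proteins, 2 of 23 core autophagy genes, 1 of 8 autophagy receptors and 2 of 16 regulators of the MiT/TFE factors, while of 15 further pump subunits 0 were higher and 1 was lower. Of all genes, 5.84% were higher and 5.01% lower by this rule, so that the smaller of these counts are near the background. The receptor was BNIP3, the regulators were the Rag GTPases RRAGC and RRAGD, the membrane proteins were TMEM192 and LAPTM4A, the core genes were WDR45B and ATG4C, and the pump subunit was TCIRG1, all named after their values were seen. By limma 0 genes in these lists passed an adjusted p. After rescaling without the mitochondrial genes, 2 of the 32 hydrolases were higher at an unadjusted p. So were 2 membrane proteins, 1 core autophagy gene, 1 receptor and 1 regulator, with 0 lower in these lists. Of the pump subunits 0 were then higher and 2 lower. The shares of all genes were 3.54% higher and 8.12% lower. TPP1, a lysosomal tripeptidyl peptidase, was at 55.7, 48.6, 55.4 and 50.3 TPM in AsPC-1 and 119, 136, 124 and 141 TPM in PANC-1, so its roseoflavin libraries lay below the others in AsPC-1 and above them in PANC-1. The difference between lines was 0.35 (SE 0.0525, limma adjusted p = 0.336). For RRAGC it was 0.23 (SE 0.0734, limma adjusted p = 0.410).

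A list of 13 stress genes, targets of ATF4 and NRF2, was read beside these because SQSTM1 is a known target of NRF2. This list too was chosen with earlier results of these data known. All 13 were higher with roseoflavin in PANC-1 at an unadjusted p (5.84% of all genes), with 0 at an adjusted p by limma. Their median change was 0.72 there and 0.07 in AsPC-1, against 0.00 and -0.03 for all genes. In AsPC-1, 6 of the 13 were higher in both matched comparisons (17.0% of all genes) and 3 were lower in both (35.4%). DDIT3, a transcription factor of the ATF4 pathway, was at 58.3, 97.3, 60.9 and 107 TPM in PANC-1 and at 35.4, 26.4, 36.3 and 26.7 TPM in AsPC-1. The NRF2 target TXNRD1, picked after its values were seen, was at 107, 171, 107 and 183 TPM in PANC-1. In AsPC-1 it was at 154, 195, 179 and 207 TPM. The part of this response in the SQSTM1 and PSAP values was not tested.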

How the data were processed

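RNA was measured in 8 libraries, 1 per group, made with a stranded mRNA kit per the labels' protocols. The authors deposited 1 table of TPM per gene, a level corrected for length and scaled to the same total in each library, with 8 columns of TPM, per the file headers, that name the line and the treatment. STAR 2.7.3a, HTSeq 2.0.2 and the build hg38 are named in the submitters' processing notes, and the annotation and the step from reads to TPM are not given in the sources used here. Rows without a gene were dropped. Because the values are TPM, no count test was used.

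Values were analysed as log2(TPM + 1), which understates the change of low genes, for the 19122 genes that reached 1 TPM in 2 or more of the libraries. The limma package 3.58.1 was run in R 4.3.3 (eBayes with a trend), and p-values were adjusted by Benjamini-Hochberg over all genes. The line and each compound were fitted as additive terms (4 residual degrees of freedom), each compound within a line, with the differences between lines, as nested terms (2), and the interaction of the compounds with the line as a term (3). The script was tested on simulated data, with log2 changes planted in 200 of 19122 genes. Changes of 0.5 were recovered at 0% for roseoflavin in PANC-1. For the line difference in the roseoflavin change, even changes of 1 were recovered at 0%. Over both lines, changes of 0.5 were recovered at 54% for roseoflavin and 44.5% for trametinib, and changes of 1 at 88.5% and 81%. Calls of 0 genes at an adjusted p therefore do not show that nothing changed.

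A matched comparison sets 1 treated library against 1 untreated library of the same line and the same other compound, or PANC-1 against AsPC-1 at the same treatment. Fitted values are printed for at most the 6 genes with the smallest p, all with an unadjusted p under 0.05, in a comparison, and for the 2 genes of each other list with the smallest p for the line difference with roseoflavin, of which some are printed here. Values after rescaling are also given for some of the genes whose call or direction it turned. The members and lists were chosen with earlier results of these data known. Alternatives, 15 in all, were rescaling without the mitochondrial genes, quantile normalization, a pseudocount of 0.1, no filter, a mean of at least 10 TPM and leaving out each library. Where they applied, a fit without the line term and a fit with only 1 compound split by line were added. Promoter sequences are from RefSeq. Per GENCODE 29, many of these genes overlap a neighbour, among them SQSTM1 (MGAT4B and MRNIP on the other strand), and how shared reads were handled is not given in the sources used here. The near copy of MAP1LC3B, MAP1LC3B2, was at 0.699 TPM or less.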

Additional observations from a re-analysis of the deposited data

How the results depend on the processing

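The 36 fitted changes named for single genes by rank kept their direction in all 496 values under the alternatives. Each of the 36 already went in 1 direction in all its matched comparisons. Without 1 library of a line, a compound change within that line is that of the remaining matched pair. Its direction could therefore not turn. For the compounds none of the fitted changes passed the adjusted threshold, which says nothing about stability in so small a design. The lowest limma adjusted p was 0.109, for SQSTM1 with roseoflavin in PANC-1 when the test was limited to genes averaging 10 TPM or more. For the line difference, 27 or 28 of the 33 genes passed the adjusted threshold without any 1 library. Counts at an unadjusted p moved more: 190 of 278 stayed within 1.5 times, and without 1 library the count of genes higher with roseoflavin in PANC-1 ran from 2 to 11.

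Medians over the 33 genes are given on the log2 scale. The line difference was 0.10 after rescaling without the mitochondrial genes and 0.063 after quantile normalization. In the same order, the roseoflavin change in AsPC-1 turned from -0.0057 to 0.018 and 0.019, the interaction of the compounds turned from 0.033 to -0.014 and -0.0056, the line difference in the roseoflavin change was 0.050 and 0.060, the roseoflavin change in PANC-1 was 0.047 and 0.089, the trametinib change in PANC-1 was 0.011 and 0.0100, and both compounds against vehicle in PANC-1 gave 0.081 and 0.11, a comparison whose rescaling was added after seeing the data. The cause was not tested. For a compound within a line, leaving out 1 of that line's libraries leaves 1 matched pair, so its range below is no independent check. Leaving out 1 library gave -0.051 to -0.0012 for roseoflavin in AsPC-1, 0.079 to 0.088 for roseoflavin in PANC-1, 0.016 to 0.027 for trametinib in PANC-1, 0.049 to 0.13 for trametinib in AsPC-1, 0.086 to 0.18 for the line difference in the roseoflavin change, 0.0019 to 0.055 and 0.026 to 0.079 for roseoflavin and trametinib over both lines, -0.13 to -0.020 for the line difference in the trametinib change and -0.046 to 0.10 for the interaction of the compounds.

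Libraries could not be paired by replicate, because each group held 1 library and the labels give no replicate numbers. They were matched only by line and by the other compound. The limits are the single library per group, the 2 to 4 residual degrees of freedom, the unknown depth behind TPM and the mitochondrial share, which differed between the lines and moved with roseoflavin.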

Other observations

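Among the genes read beside the 33, the mitophagy receptor BNIP3 was listed at 0 in every AsPC-1 library. Whether this value is a property of the line or of the quantification was not tested. In PANC-1 BNIP3 was at 161, 213, 167 and 216 TPM with vehicle, roseoflavin, trametinib and both, so that both roseoflavin libraries lay above the others. Its relative BNIP3L was at 81.6, 71.7, 96.2 and 59.9 TPM in AsPC-1, lower with roseoflavin in both comparisons, and at 72.8, 88.2, 71.2 and 85.0 TPM in PANC-1, higher in both. The remaining MiT/TFE factors were low, with MITF at 0.014 TPM or less in AsPC-1 and 1.66 to 2.11 TPM in PANC-1, and TFEC at 0.034 TPM or less in every library.

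With roseoflavin, 13 of the 33 genes in AsPC-1 and 6 in PANC-1 were higher in 1 matched comparison and lower in the other. Of all genes, 17.0% were higher and 35.4% lower in both AsPC-1 comparisons. In PANC-1 these shares were 30.5% and 29.8%, so many genes outside the 33 were in neither class. The 2 examples that follow were chosen after their values were seen. With roseoflavin in AsPC-1, WIPI1 went from 1.60 to 1.07 TPM without trametinib and from 0.930 to 1.79 TPM with it. With roseoflavin in PANC-1, GABARAPL2 went from 31.7 to 36.7 TPM without trametinib and from 36.0 to 31.8 TPM with it.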
